A study of Mus musculus with 2 samples.

Results

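Colon neutrophils are the short-lived granulocytes that leave blood vessels and enter the lamina propria, the connective tissue beneath the gut epithelium. They were taken from single-cell RNA sequencing by a rule on their RNA. A cell was kept when S100a8 and S100a9 together made at least 1% of its UMIs (unique molecular identifiers, each counting 1 captured RNA molecule), when it held at least 2 UMIs of Csf3r, Cxcr2, Retnlg, Hdc, Mmp9 and G0s2 summed, and when it held 0 UMIs of Ccr3, Siglecf, Cd79a, Cd3e and C1qa. Of 5111 cells that passed the filters on detected genes and mitochondrial UMIs, 246 met the rule. They were 41 of 2597 cells in the wild-type (WT) library and 205 of 2514 cells in the knockout (KO) library.

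The study made 1 library per genotype from pooled 8-week-old male mice on the C57BL/6J background. The KO mice carried a CRISPR-Cas9 deletion of the long non-coding RNA lncLy6c, made with guides upstream of its exon 1 and downstream of its exon 2, which the labels call LncRNA17Rik. Cells labelled cd11b+ were taken from the interphase of a Percoll gradient of colon tissue, dead cells were removed with 7-AAD, and 10x Genomics 3' libraries were made. The single-cell data came from 6 mice, and the sources used here do not say how many entered each library. Since there was 1 library per genotype, no difference has a replicate check, and every interval given here covers counting error only. No symbol among the 31053 features matched the deleted gene as the labels name it, so the genotype labels were not checked from its counts.

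Neutrophils are made in bone marrow under the cytokine G-CSF, whose receptor is Csf3r, and they follow chemokines such as Cxcl1 and Cxcl2 through the receptor Cxcr2. They fill their azurophil, specific and gelatinase granules in that order during maturation, so mature cells carry the granule proteins but little of the early granule mRNA. In tissue they kill microbes with the NADPH oxidase and proteases, and they release interleukin-1 and chemokines that draw in further leukocytes. Interferon gamma, a cytokine of T cells and natural killer cells, acts in part through Irf1 to induce GTPases of the Gbp and Irg families, antigen-processing genes and Cxcl10.

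The genes of the rule are given as a description, since they chose the cells. S100a9, a subunit of the antimicrobial protein calprotectin, stood at 36658 CPM (UMIs per 1000000 UMIs of the summed neutrophils) in WT and 42046 CPM in KO. Its partner S100a8 reached 30605 CPM in WT against 31430 CPM in KO. The UMI share of both genes had a median of 5.01% in WT cells (range 1.18 to 21.6%) and 6.67% in KO cells (1.03 to 40.2%). Both libraries overlapped over most of this range. A UMI of Csf3r was found in 95.1% of WT and 96.1% of KO neutrophils, and a UMI of Cxcr2 in 63.4% and 75.6%. Retnlg, a secreted resistin-like protein of mature neutrophils, was found in 56.1% of WT and 80.0% of KO cells, and in 50% and 64.4% when each cell was thinned to 1000 UMIs, where the B cell-like cells gave 0.294% and 0%. Its summed level was 5176 CPM in WT neutrophils but 3012 CPM in those of KO.

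Part of the cells lay near the limits of the rule. In WT, 2 members had between 1 and 1.5% of UMIs from S100a8 and S100a9, and 6 cells outside had between 0.5 and 1% with the other criteria met. In KO these numbers were 18 and 12. The sum of the 6 receptor and enzyme genes ran from 7 to 127 UMIs in WT members, with a median of 20, and from 3 to 212 in KO members, with a median of 36. No member lay at the limit of 2 UMIs. A single UMI of an excluded gene kept out 7 WT and 29 KO cells that met the other criteria, and 12 more cells in each library held 2 or more such UMIs. Among those left out, 7 WT and 7 KO cells carried C1qa, the macrophage complement gene, while Ccr3, the eosinophil chemokine receptor, was carried by 3 WT and 17 KO cells.

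**Figure D1:**
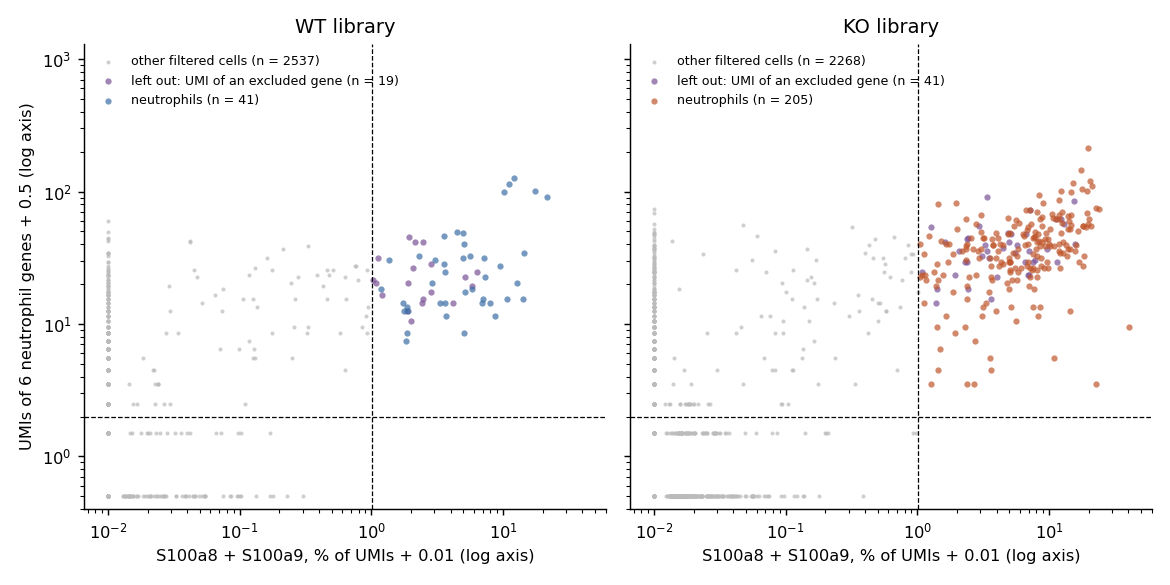
Share of UMIs from S100a8 and S100a9 (x axis, percent plus 0.01, log scale) against the summed UMIs of Csf3r, Cxcr2, Retnlg, Hdc, Mmp9 and G0s2 (y axis, UMIs plus 0.5, log scale) for each filtered cell of the WT library (left) and the KO library (right). Dashed lines mark the limits of 1% and 2 UMIs, and the 41 WT and 205 KO neutrophils sit in the upper right with 19 WT and 41 KO cells that were left out for a UMI of an excluded gene.

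Neutrophils made 1.58% of WT cells (exact binomial 95% interval 1.14 to 2.14%) and 8.15% of KO cells (7.11 to 9.29%). The intervals did not overlap, and the KO share stayed above the WT share under each alternative rule and filter tried. These are shares of the deposited barcodes, which are fewer than the cells the study counted, above all for WT. The sort, the gradient and the pool of mice cannot be told apart from the genotype with 1 library each. Cells with B cell transcripts were present in both libraries under the cd11b+ label. B cell-like cells, defined by at least 3 UMIs of Cd79a, Cd79b and Ms4a1, made 13.2% of WT and 3.46% of KO cells. Itgam, which encodes CD11b, had a UMI in 20.8% of those WT and 2.30% of those KO B cell-like cells, against 46.3% of WT and 54.6% of KO neutrophils. With cells thinned to 1000 UMIs each, the shares were 4.41% of WT and 0% of KO B cell-like cells, where 0 of 86 allow up to 4.20% (exact binomial), against 25% of WT and 24.2% of KO neutrophils. A cell without an Itgam UMI may still carry the protein. No doublet caller was run. One barcode was shared between the libraries, and 0 of the neutrophil barcodes were.

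WT neutrophils held a median of 2157 UMIs (983 to 5636) and KO neutrophils a median of 3027 (506 to 35371). The median cell had 826 detected genes in WT and 991 in KO. In all, 93513 UMIs stood behind the WT values and 741069 behind the KO values, so the WT counts set the width of nearly every interval. A count of 0 allows up to 3 UMIs over the summed neutrophils, which is 32.1 CPM in WT and 4.05 CPM in KO. The mitochondrial share of UMIs had a median of 1.52% in WT and 0.620% in KO. It exceeded 5% in 9 WT neutrophils (22.0%) and 13 KO neutrophils (6.34%).

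Most markers of other lineages were at or near 0 in both libraries. The rule itself sets C1qa, Ccr3, Siglecf, Cd3e and Cd79a to 0, so only the other markers bear on this. The macrophage gene C1qc had 0 UMIs, and C1qb had 2 in WT and 1 in KO. All 7 mast cell and basophil genes had 0 UMIs, and of the eosinophil genes only Ear2 was detected, with 1 WT and 31 KO UMIs. T and NK cell genes summed to 6 WT and 26 KO UMIs, and erythroid genes to 0 and 4. Epithelial genes summed to 22 UMIs (235 CPM) in WT and 37 UMIs (49.9 CPM) in KO, a log2 ratio of the sums of -2.24 (-3.04 to -1.40), and their part in the genes called lower was not tested. Immunoglobulin and J chain transcripts, which plasma cells make, summed to 267 UMIs (2855 CPM) in WT and 91 UMIs (123 CPM) in KO neutrophils. The 7 detected of 9 macrophage genes summed to 321 CPM in WT and 634 CPM in KO, mostly from Csf1r and Apoe. The 6 monocyte genes summed to 160 CPM in WT and 580 CPM in KO.

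MHC class II genes, which present antigen on dendritic cells, macrophages and B cells, were an exception in KO, as the immunoglobulin transcripts were in WT. The 9 genes of the class II and dendritic cell list summed to 1080 CPM in WT and 4361 CPM in KO. H2-Aa had 11 WT and 621 KO UMIs, Cd74, the class II invariant chain, had 49 and 1467, and H2-Ab1 had 29 and 611. A few cells held most of them. At least 5 UMIs of H2-Aa, H2-Ab1, H2-Eb1 and Cd74 were found in 5 WT cells (12.2%) and 48 KO cells (23.4%), which held 59 of 100 WT and 2863 of 3186 KO class II UMIs. The 20 deepest KO cells, at 4730 UMIs or more, held 28.9% of the KO UMIs and 83.6% of the class II UMIs. Above 6000 UMIs there were 13 KO neutrophils and 0 WT neutrophils. Class II-rich cells had lower S100 shares than the rest, with medians of 3.30 against 5.10% in WT and 4.57 against 7.03% in KO. Several results below are given with and without these cells, and whether doublets or carried-over RNA have a part in them was not tested.

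**Figure D2:**
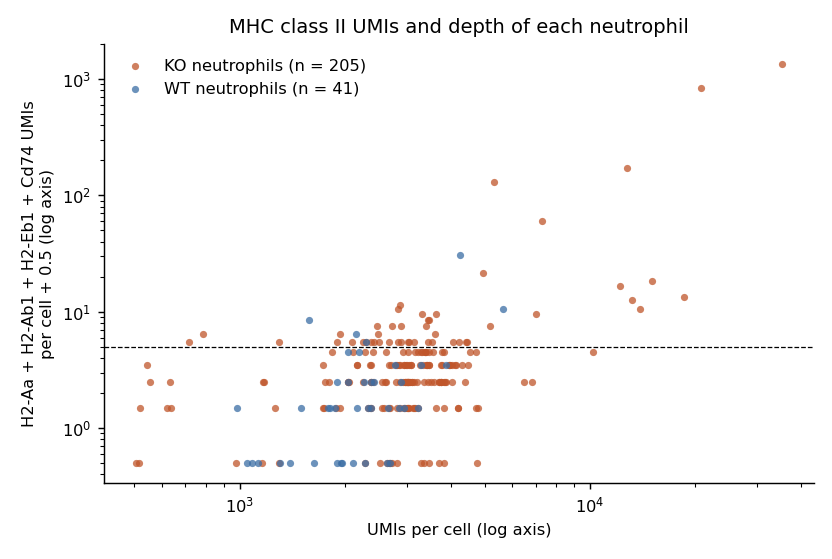
Total UMIs per neutrophil (x axis, log scale) against the sum of H2-Aa, H2-Ab1, H2-Eb1 and Cd74 UMIs plus 0.5 (y axis, log scale), 1 point per cell. The dashed line separates cells with 5 or more class II UMIs (5 WT, 48 KO), and the KO cells above 100 class II UMIs are all deeper than the median KO cell.

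Besides the genes of the rule, the neutrophils stood apart from the other cells in many genes. Since the cells were chosen by their RNA, this is a description. Il1f9, an interleukin-36 cytokine, stood at 2043 CPM in WT neutrophils and 6.08 CPM in the other WT cells, and at 1437 against 16.4 CPM in KO. Lcn2, the siderophore-binding lipocalin of neutrophil granules, stood at 406 against 2.06 CPM in WT and 671 against 6.85 CPM in KO. Slpi, a leukocyte protease inhibitor, stood at 3379 against 65.6 CPM in WT and 6057 against 257 CPM in KO. Acod1, which makes itaconate, stood at 6651 against 66.4 CPM in WT and 4939 against 151 CPM in KO. Of 1805 genes at 50 CPM or more in the neutrophils of both libraries, 165 were at least 4-fold above the other cells in both. Hcar2, Asprv1, Wfdc21, Lrg1, Sh2d3c, Trem1, Fpr1 and Hp were among the 20 with the largest difference.

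Proteases of the early granules were at or near 0 in both libraries. Of the azurophil granule genes, which are transcribed in promyelocytes, Mpo, Elane and Ctsg had 0 UMIs in either library and Prtn3 had 0 in WT and 2 in KO. Members of the same list that are also used outside promyelocytes were detected, with 756 WT and 8083 KO UMIs of Srgn, the proteoglycan core of granules, and 7 and 65 of Ctsc, a protease activator. Specific granule genes split. Camp had 1 WT and 5 KO UMIs, Ltf had 2 and 8, and Ngp had 3 and 9, and a UMI of any of these 3 genes was found in 5 WT and 18 KO cells. Lcn2 was abundant, as given above, and so was a gene of the last granules, with Mmp9, the gelatinase, at 1187 CPM for WT and 1573 for KO.

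The KO to WT comparison asks how the neutrophils of the 2 libraries differed. The log2 ratio of KO over WT CPM was taken with 1 CPM added to both, and a gene was called when it differed at least 2-fold and its 95% counting interval (exact conditional binomial, without the added CPM) left out 0. Of 1925 genes whose UMIs in both libraries came to 50 or more, 150 (7.79%) were called higher in KO and 107 (5.56%) lower. The median log2 ratio was 0.09 over these genes and 0.14 over the 3449 genes with at least 20 UMIs, the set over which the medians of gene lists are given. These calls compare 2 libraries, not the genotypes. The calls rested in part on the deep and class II-rich KO cells. Without the 10% deepest cells of each library 89 genes were called higher, of which 54 were among the 150, and without the class II-rich cells 80 were, of which 49 were among the 150. The genes called lower were then 88, of which 61 were among the 107, and 82, of which 57 were. Without either set of cells, the numbers of higher and lower calls were nearly equal. The calls also depended on the excluded genes. With no excluded genes in the rule 118 genes were called higher, of which 42 were among the 150. In that setting 141 were called lower, of which 49 were among the 107. Over the 3449 genes with 20 or more UMIs, 175 were called higher and 174 lower.

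**Figure D3:**
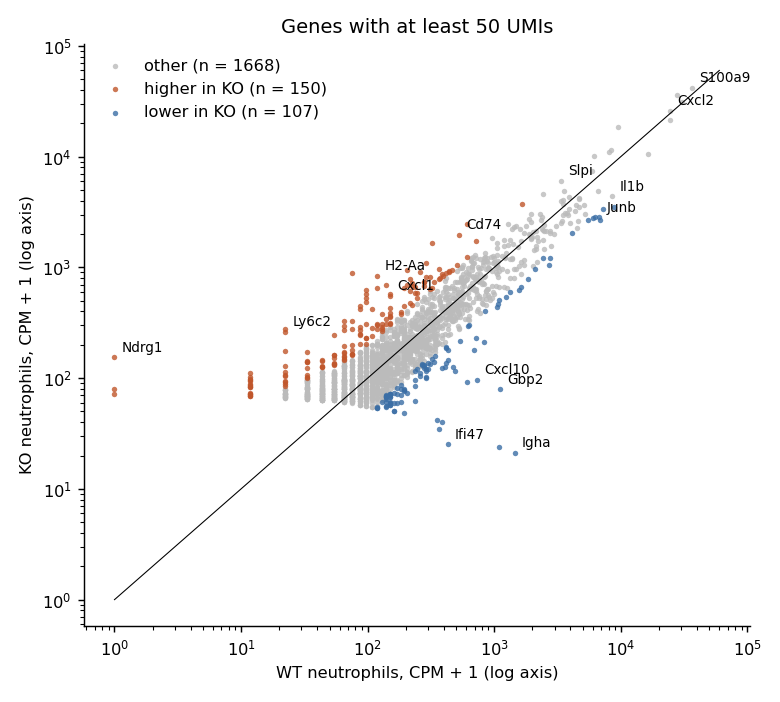
Summed expression of each gene with at least 50 UMIs in WT neutrophils (x axis) and KO neutrophils (y axis), in CPM plus 1 on log axes, with the line of equal values. Orange points are the 150 genes called higher in KO and blue points the 107 called lower, with Gbp2, Ifi47 and Cxcl10 far below the line, and Ndrg1 at 0 UMIs in WT.

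Genes of the interferon gamma response had low ratios in the KO library. This list of 21 genes was written after the values were seen, so its counts are no independent evidence of direction. Of its 7 genes with at least 50 UMIs, 6 were called lower in KO and 0 higher, beside the 5.56% called lower over all genes. The median log2 ratio of the 9 members with at least 20 UMIs was -2.74, beside 0.14 over all genes. B and plasma cell markers stood lower still, at a median of -5.80 over 2 genes, and come from the immunoglobulin RNA given above.

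Promoter windows of 4 of the 6 called genes hold a match to a binding motif of the interferon pathway, and a stretch of each is shown because these genes were called lower. The motifs searched on both strands were TTCNNNGAA, the gamma-activated site (GAS), and GAAA followed after any 2 bases by another GAAA, the interferon-stimulated response element (ISRE), which Irf factors bind. The windows run from 250 bases before to 50 bases after the RefSeq start (GRCm38.p6). For Gbp2 and Irgm1 this start lies inside the gene coordinates given further below, which are from GENCODE, and so does the match. Each window is written 5' to 3' on the strand of the gene, and the capitals mark the match.
Gbp2 at chr3:142620594-142620623, plus strand, ISRE read on the reverse strand, 59 bases before the start: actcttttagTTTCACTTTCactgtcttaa
Irgm1 at chr11:48871431-48871460, minus strand, ISRE, 30 bases before the start: cctgtttcaaGAAATAGAAAccgaaactga
Cxcl10 at chr5:92349083-92349112, minus strand, ISRE, 213 bases before the start: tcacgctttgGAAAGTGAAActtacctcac
Irf1 at chr11:53769914-53769942, plus strand, GAS, 90 bases before the start: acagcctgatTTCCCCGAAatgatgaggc
The Irgm1 window holds another ISRE match, which overlaps the one shown. No match to either motif lies in the windows of Ifi47 and Tap1. Over all 32851 windows, 8.3% held the GAS letters, 3.44% the ISRE letters and 11.3% either. Of the 17 listed genes with a window, 8 held a GAS match, 11 an ISRE match and 13 either. These matches describe letters and not binding.

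Gbp2, a guanylate-binding protein of the cell-autonomous defence (chromosome 3, 142620602 to 142638008, plus strand), had 103 UMIs in WT (1101 CPM, 95% interval 899 to 1336) and 58 in KO (78.3 CPM, 59.4 to 101). Its log2 ratio was -3.80 (-4.30 to -3.34). Ifi47, an immunity-related GTPase (chromosome 11, 49076587 to 49096974, plus strand), had 40 UMIs in WT (428 CPM) and 18 in KO (24.3 CPM), a log2 ratio of -4.08 (-5.03 to -3.30). In both genes the smaller WT library held more UMIs than the KO library. Irgm1, a regulator of the same GTPase family (chromosome 11, 48861968 to 48871683, minus strand), had 34 and 25 UMIs and a log2 ratio of -3.39 (-4.24 to -2.64).

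Irf1, the transcription factor that relays the signal (chromosome 11, 53770014 to 53778374, plus strand), had 57 UMIs in WT (610 CPM) and 67 in KO (90.4 CPM), a log2 ratio of -2.74 (-3.28 to -2.22). Cxcl10, a chemokine that attracts activated T cells (chromosome 5, 92346638 to 92348889, minus strand), had 68 UMIs in WT (727 CPM) and 71 in KO (95.8 CPM), a log2 ratio of -2.91 (-3.42 to -2.42). When each cell was weighted equally in place of each UMI, the Cxcl10 ratio was -1.59. Tap1, a peptide transporter of antigen presentation, had 18 and 35 UMIs and a log2 ratio of -2.00 (-2.89 to -1.12), which was -0.84 at an S100 limit of 2%. Socs1, the feedback inhibitor of the pathway, had 9 WT and 29 KO UMIs (-1.28, -2.42 to -0.03), which was too few to be tested. The immunoproteasome subunits did not share the direction. Psmb8 had 5 and 83 UMIs (1.05, -0.21 to 2.73), and Psmb9 had 1 and 46 (2.43, -0.01 to 7.87), both with intervals that include 0.

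A few WT cells held most of the interferon gamma UMIs. Summed over the list, each WT neutrophil held between 0 and 73 UMIs with a median of 2, and each KO neutrophil between 0 and 22 with a median of 1. The 5 richest WT cells held 73, 56, 51, 35 and 20 UMIs, which was 62.8% of the 374 UMIs of WT, while the 5 richest KO cells held 17.4% of 477 UMIs. The richest pair of WT cells lay near the limit of the rule, at S100 shares of 1.77% and 1.84%, and the first of them had 11.4% mitochondrial UMIs. The 8 WT cells with S100 shares below 2% held 172 of the 374 UMIs (46.0%), and the 28 such KO cells held 138 of 477 (28.9%). At an S100 limit of 2% the list median was -2.44. At 10 or more UMIs there were 11 WT cells (26.8%) and 12 KO cells (5.85%). Cells with 0 UMIs made 29.3% of WT and 34.1% of KO. For Ifi47 the 5 richest WT cells held 82.5% of its WT UMIs, for Cxcl10 88.2% and for Gbp2 73.8%. Fewer UMIs were concentrated for Irf1, at 56.1%.

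The detection of these genes pointed the same way at equal depth. With each neutrophil thinned to 1000 UMIs, which left out 1 WT and 11 KO shallower cells, Gbp2 was detected in 25% of WT and 5.15% of KO neutrophils (39.0% and 16.6% unthinned). B cell-like cells, a type in which free RNA could also be read, gave thinned shares of 2.65% in WT and 0% in KO, where 0 of 86 cells allow up to 4.20% (exact binomial). Irf1 was detected in 32.5% of thinned WT and 7.73% of thinned KO neutrophils (46.3% and 21.0% unthinned), beside 8.53% and 8.14% of thinned B cell-like cells. The thinned KO neutrophils were near the B cell-like level for Irf1. Whether B cell-like cells make this RNA themselves was not tested, so their share is no measured level of free RNA. Median depths before thinning were 2157 and 3027 UMIs in WT and KO neutrophils and 9288 and 4453 in WT and KO B cell-like cells.

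The group kept its direction without the deep and class II-rich cells. Without the 10% deepest cells, 5 of 5 genes with enough UMIs were called lower, beside 88 of 1476 over all genes, with a list median of -2.68. Without the class II-rich cells 3 of 3 were, beside 82 of 1387, with a median of -2.69. Over the alternatives tried, the list median ran from -2.90 to -1.89. The same list was read in other cells of the 2 libraries, which share their library with the neutrophils. Its median log2 ratio was -0.50 in eosinophil-like cells, -1.22 in monocyte-like cells and -0.92 in B cell-like cells, beside all-gene medians of -0.02, -0.13 and 0.21 in these types. In that order of types, 6 of 7, 18 of 20 and 11 of 15 members with at least 20 UMIs had ratios below 0. Gbp2 was at -2.41, -1.67 and -2.61, where the neutrophils were at -3.80. For Cxcl10 the ratio was -0.50 in eosinophil-like, 0.02 in monocyte-like and 2.29 in B cell-like cells, where the neutrophils were at -2.91. The difference between cell types was not tested.

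**Figure D4:**
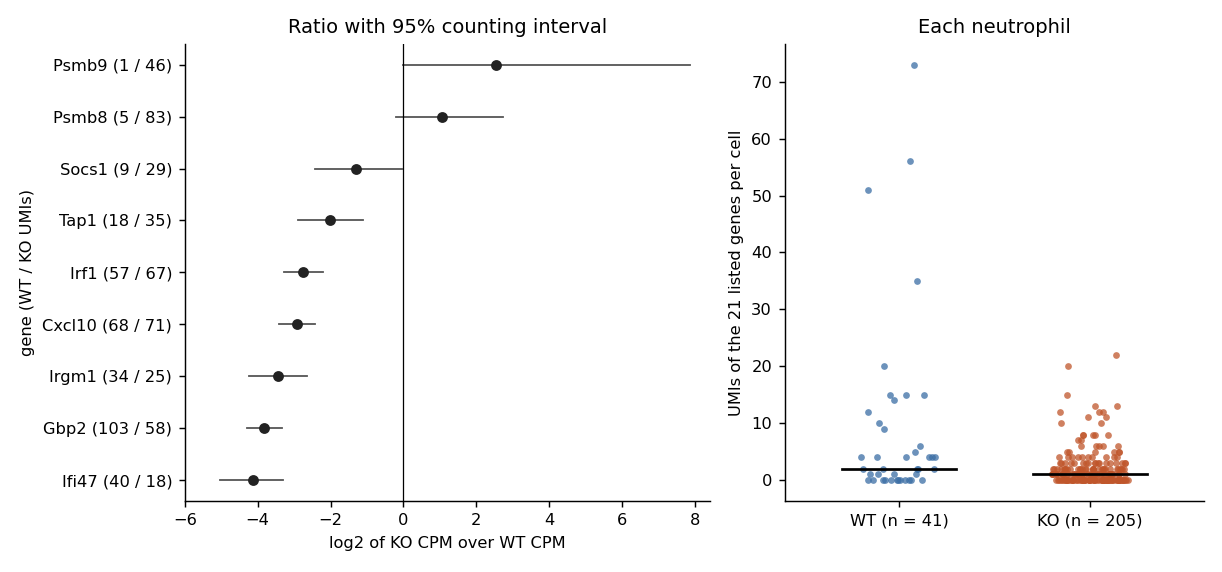
Left, log2 ratio of KO over WT CPM (x axis, no CPM added) for the 9 interferon gamma response genes with at least 20 UMIs, with 95% counting intervals and the UMIs of WT and KO after each name. Right, summed UMIs of the 21 listed genes in each neutrophil (y axis) with the median as a bar, where 4 WT cells lie above the highest KO cell at 22 UMIs.

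The wider list of 25 interferon-stimulated genes, which respond mostly to type I interferon, had a median log2 ratio of -0.45. Of 16 with at least 50 UMIs, 4 were called lower and 1 higher, beside 5.56% and 7.79% over all genes. Beside Gbp2 and Ifi47 the lower genes were Slfn5, with 44 WT and 93 KO UMIs (-1.90), and Rtp4, with 18 and 58 (-1.29). Rtp4 was at -0.84 without the deepest and -0.59 without the class II-rich cells. Isg20, an exonuclease, was called higher with 4 and 108 UMIs (1.75). Isg15, the ubiquitin-like modifier, had 75 and 384 UMIs and a log2 ratio of -0.63, which is short of 2-fold. The antiviral membrane genes Ifitm1, Ifitm2 and Ifitm3 were at -0.04, 0.46 and 0.65.

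Immediate early genes, which are transcribed within minutes of a stimulus, mostly had ratios below 0. Of 21 tested, 5 were called lower and 0 higher, beside 5.56% called lower over all genes, and 13 had counting intervals wholly below 0, as 13.5% of all 1925 genes did. The median log2 ratio was -0.66. Junb, an AP-1 subunit (chromosome 8, 84974484 to 84978718, minus strand), had 631 UMIs in WT (6748 CPM) and 2092 in KO (2823 CPM), a log2 ratio of -1.26 (-1.39 to -1.13). Fos, its AP-1 partner, had 146 and 460 UMIs (-1.33, -1.60 to -1.05). Egr1, a zinc finger factor, had 115 and 399 (-1.19), while the phosphatases Dusp1 and Dusp2, which switch off MAP kinases, were at -1.10 and -1.05 but at -0.88 and -0.76 without the deepest cells. One member had an interval above 0, Jund, an AP-1 subunit that is expressed more steadily, with 135 and 1717 UMIs (0.68, 0.43 to 0.95). Without the deepest cells 3 of 20 were called lower, beside 88 of 1476 over all genes. Without the class II-rich cells 4 of 20 were, beside 82 of 1387.

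Genes of NF-kB, the main inflammatory transcription factor, and of its feedback split by gene. Of 15 tested genes of this list, 2 were called lower and 2 higher, beside 5.56% and 7.79% over all genes, with a median of -0.42. Zfp36, which marks cytokine mRNA for decay (chromosome 7, 28376784 to 28380253, minus strand), had 257 UMIs in WT (2748 CPM) and 905 in KO (1221 CPM), a log2 ratio of -1.17 (-1.37 to -0.96). Tnfaip2 had 387 and 1508 UMIs (-1.02, -1.19 to -0.86), which was -0.97 without the deepest and -0.92 without the class II-rich cells, short of 2-fold. Nfkbia, the inhibitor that holds NF-kB in the cytoplasm, was at -0.42, and Tnfaip3, a ubiquitin-editing brake, at -0.83. The higher genes were Nfkb2, a precursor of an NF-kB subunit, with 5 and 100 UMIs (1.32, 0.07 to 2.99), and Cd83, a membrane protein of activated antigen-presenting cells, with 6 and 115 UMIs (1.26, 0.11 to 2.75). Without the deepest cells, 0 of 13 genes of the list were called higher and 1 lower, beside 89 and 88 of 1476 over all genes. Without the class II-rich cells, 0 of 13 were called higher and 2 lower, beside 80 and 82 of 1387. Nfkb2 was at 0.95 without the class II-rich cells. For Cd83 the sign changed with the cells kept, since its log2 ratio was -1.48 without the deepest cells and 5.37 without the class II-rich cells, the latter a size that depends on the added CPM.

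Interleukin-1 family genes mostly had ratios below 0, short of the 2-fold limit. Of 9 genes tested 0 were called and 8 had intervals wholly below 0, beside 13.5% over all genes, and the list median was -0.64. Il1b, the main secreted member (chromosome 2, 129364570 to 129371139, minus strand), had 798 UMIs in WT (8534 CPM) and 3268 in KO (4410 CPM), a log2 ratio of -0.95 (-1.06 to -0.84). Single WT neutrophils ran from 861 to 30541 CPM with a median of 7985, and single KO neutrophils from 0 to 26104 with a median of 3912, so the cells of the 2 libraries overlapped widely. Il1rn, the receptor antagonist, had 420 and 1666 UMIs (-0.998, -1.15 to -0.84). Nlrp3, the inflammasome sensor that leads to Il1b cleavage, had 431 and 1927 (-0.83, -0.98 to -0.67). Il1r2, the decoy receptor, was at -0.46, Il1f9 at -0.51 and Il1a at -0.76.

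Cxcl2, the chemokine that draws in further neutrophils through Cxcr2 (chromosome 5, 90903871 to 90905938, plus strand), had a ratio near the median of all genes. It had 2279 UMIs in WT (24371 CPM) and 19258 in KO (25987 CPM), a log2 ratio of 0.09 (0.03 to 0.16), with cell medians of 17707 and 23973 CPM. The macrophage inflammatory proteins Ccl3 and Ccl4 were at -0.47 and -0.38, and Ccl6 at 0.57. Tnf had 87 and 374 UMIs (-0.88, -1.22 to -0.53), but was at 0.38 when cells were thinned to equal depth. Of 15 cytokine and chemokine genes tested, 2 were called higher and 2 lower, beside 7.79% and 5.56% over all genes, with a list median of -0.30. The lower ones were Cxcl10 and Il23a, a subunit of interleukin-23, with 28 and 88 UMIs (-1.33, -1.96 to -0.67), at -0.68 without the deepest cells. Cxcl1, the other Cxcr2 ligand, was called higher with 14 UMIs in 5 WT cells and 411 UMIs in 55 KO cells (1.88, 1.13 to 2.77), a ratio that fell to -0.08 when the S100 limit was set at 0.5%. Ccl2, a monocyte chemokine, had 1 and 61 UMIs (2.83, 0.41 to 8.27). Il6 had 0 WT and 36 KO UMIs and Ccl9 0 and 39, both under the 50 UMIs needed for a call.

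Of 8 receptors for chemoattractants tested, 1 was called lower and 0 higher, beside 5.56% and 7.79% over all genes. Fpr2, a formyl peptide receptor, had 67 UMIs in WT (716 CPM) and 169 in KO (228 CPM), a log2 ratio of -1.65 (-2.07 to -1.22), as the one called of 8 tested. Cxcr4, which retains neutrophils in bone marrow and rises as they age, had 117 and 483 UMIs (-0.94, -1.24 to -0.64). C5ar1, the complement C5a receptor, was at 0.45, Ccr1 at -0.08 and Fpr1 at -0.17. Without the deepest cells C5ar1 was at 0.97 and Fpr1 at 0.72, and 2 of 8 receptors were called lower, beside 88 of 1476 genes tested. Of 13 tested growth factor receptor and survival genes, 1 was called lower and 0 higher, beside 5.56% and 7.79% over all genes. The lower one was Il4ra, a subunit of the interleukin-4 receptor, with 26 and 90 UMIs (-1.19). Without the deepest cells 2 of 13 were called lower, beside 88 of 1476 genes tested. Mcl1, the survival factor on which neutrophils depend, was at -0.22 and Csf2rb, the shared GM-CSF receptor chain, at -0.47.

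Among 14 tested adhesion and Fc receptor genes, 3 were called lower and 0 higher, beside 5.56% called lower over all genes. Icam1, the ligand of leukocyte integrins, had 153 UMIs in WT (1636 CPM) and 496 in KO (669 CPM), a log2 ratio of -1.29 (-1.55 to -1.02). Siglece, an inhibitory lectin, had 22 and 71 (-1.29), and Fcgr4, an activating IgG receptor, had 22 and 86 (-1.01). With no excluded genes in the rule Icam1 was at -0.70, Siglece at -0.92 and Fcgr4 at -0.60, each short of 2-fold. Itgam was at -0.44 (-0.96 to 0.11). Itgb2, the partner chain of CD11b, was at 0.95 (0.38 to 1.59). Ptgs2, the inducible cyclooxygenase of prostaglandin synthesis, had 255 and 770 UMIs (-1.39, -1.60 to -1.18). It was the called one of 4 lipid mediator genes tested, beside 5.56% called lower over all genes.

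Genes of the NADPH oxidase had ratios mostly above 0. Of 7 tested, 2 were called higher and 0 lower, beside 7.79% called higher over all genes, with a list median of 0.73. Ncf4, a cytosolic subunit, had 8 and 180 UMIs (1.49, 0.50 to 2.74), and Cyba, the small membrane subunit, had 43 and 697 (1.03, 0.59 to 1.51), at 0.94 without the deepest cells. Cybb, the catalytic subunit, had 17 and 255 (0.92, 0.21 to 1.72), but was at -0.89 without the deepest cells. Granule and secreted proteins split by gene when all cells were kept. Slpi had 316 and 4489 UMIs (0.84, 0.68 to 1.01), Lcn2 38 and 497 (0.72, 0.25 to 1.24), and Pglyrp1, a peptidoglycan-binding protein, 39 and 594 (0.94, 0.47 to 1.45). Mmp8, the neutrophil collagenase, was called lower with 40 and 108 UMIs (-1.55, -2.09 to -0.99), and was at -0.86 without the deepest cells. Wfdc21 was called lower with 100 and 345 (-1.20), and was at -0.21 without the deepest cells. Without those cells Lcn2 was at 1.45, Slpi at 1.30 and Pglyrp1 at 1.13. With all cells kept, 0 of 4 tested genes of the specific granule list were called higher and 1 lower, Chil3 at -1.94. In the gelatinase granule list 0 of 10 were called higher and 2 lower, beside the shares over all genes given above. Without the deepest cells, 2 of 3 specific granule genes were called higher, and 2 of 10 gelatinase granule genes. In each list 0 were then called lower, beside 89 of 1476 genes called higher and 88 lower. Chil3 was at -6.64 in that setting, a size that depends on the added CPM, so this 0 does not mean that its direction changed. Stfa1, a stefin protease inhibitor chosen after its values were seen, had 33 UMIs in 4 WT cells and 30 in 10 KO cells (-3.09), and stefin genes are near-identical copies among which reads may be split.

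Of 16 pattern recognition genes tested, 1 was called higher and 1 lower, near the 7.79% and 5.56% over all genes. Trem3 was called higher with 20 and 353 UMIs (1.15, 0.51 to 1.88) and Clec4n, the dectin-2 lectin, lower with 30 and 110 (-1.11, -1.71 to -0.48). The list median was -0.23. Acod1 was at -0.43, Tlr2 at -0.50, Clec4e at -0.28 and Cd14 at 0.20. None of 14 glycolysis and hypoxia genes was called, beside 7.79% higher and 5.56% lower over all genes, with a list median of 0.17. Of 11 transcription factors of the neutrophil lineage tested, 1 was called lower, Irf1, and 0 higher, beside 5.56% and 7.79% over all genes. Cebpb, a driver of emergency granulopoiesis, was at 0.13 and Spi1, the myeloid factor PU.1, at 0.59.

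**Figure D5:**
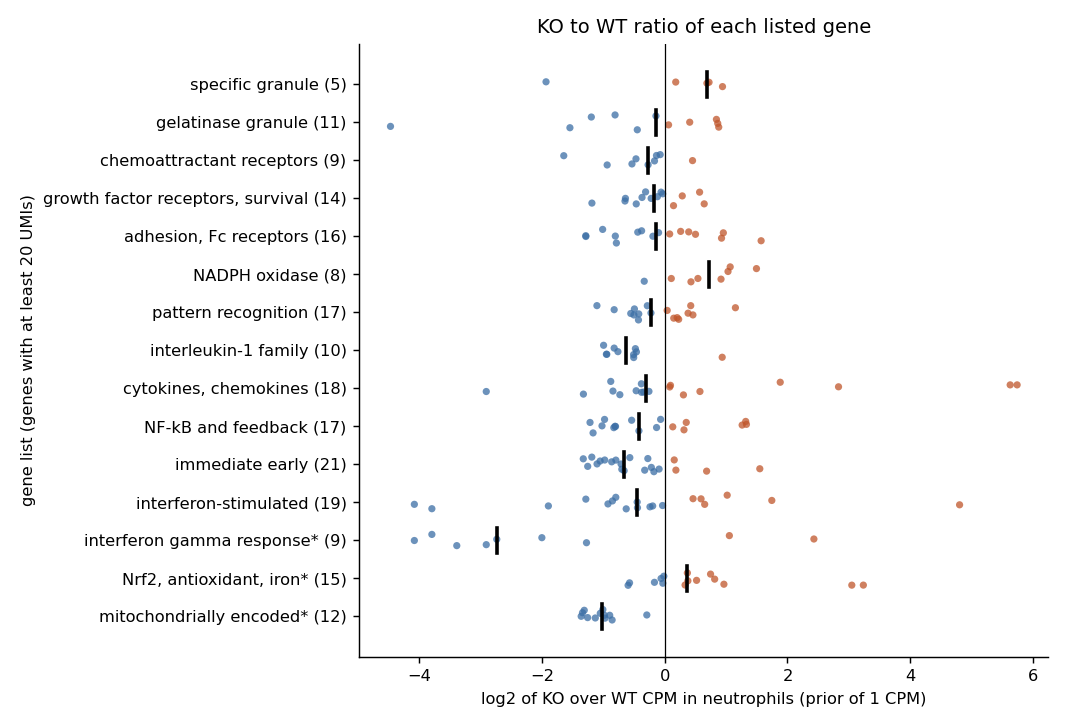
Log2 ratio of KO over WT CPM (x axis, 1 CPM added) of each gene with at least 20 UMIs, by gene list, with the number of genes in brackets and the list median as a black bar. Asterisks mark lists written after the values were seen, the interferon gamma response has the lowest median of the lists drawn, at -2.74, and points beyond 4 on the right are genes with 0 UMIs in WT whose size depends on the added CPM.

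Of the 10 genes with the highest ratios, 3 had 0 UMIs in WT neutrophils. Ndrg1, a stress- and hypoxia-responsive gene (chromosome 15, 66929318 to 66969640, minus strand), had 114 UMIs in 55 KO cells (26.8%), which was at least 4.80-fold higher against the floor of 3 UMIs over the summed WT neutrophils. Fabp5, a fatty acid carrier, had 59 UMIs in 33 KO cells, at least 2.48-fold higher against the same floor. With no excluded genes in the rule the log2 ratio was 3.55 for Ndrg1 and 1.00 for Fabp5, the latter a smaller fold than its bound. H2-DMa, which loads peptides on class II, had 52 UMIs in 14 KO cells, 82.7% of them in 5 cells, and was at least 2.19-fold higher, but with no excluded genes in the rule its log2 ratio was -1.16. Without the deepest or the class II-rich cells its ratio was 3.10 and 3.54, sizes that depend on the added CPM. The counting intervals of these 3 genes begin at log2 ratios of 1.94, 0.97 and 0.78, below the bounds from the floor. Ndrg1 and Fabp5 were thus spread over more KO cells than H2-DMa. Their levels in KO neutrophils, 154 and 79.6 CPM, lay below the 173 and 104 CPM of the other KO cells. The other WT cells were at 114 and 51.2 CPM. Whether carried-over RNA has a part in these UMIs was not tested.

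Antioxidant genes were among the highest. Srxn1, which repairs peroxiredoxins, had 1 UMI in WT and 81 UMIs in 42 cells in KO (3.24, 0.83 to 8.67). Gclm, a subunit of the enzyme that begins glutathione synthesis, had 1 UMI in WT and 71 UMIs in 44 cells in KO (3.05, 0.64 to 8.49). Of 14 tested genes of an antioxidant and iron list that was written after the values were seen, these 2 were called higher and 0 lower, beside 7.79% called higher over all genes, with a median of 0.37 and 6 of 15 ratios below 0. Hmox1, which degrades haem, had 61 and 850 UMIs (0.81, 0.44 to 1.21), the ferritin chains Ftl1 and Fth1 were at 0.75 and 0.38, and Slc7a11, the cystine importer, at 0.33. Sqstm1, an autophagy receptor, was at -0.60 (-0.86 to -0.33) and Gclc, the catalytic partner of Gclm, at -0.57 (-1.77 to 0.83).

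Several of the other highest genes rested on the deep cells. S100a4, a calcium-binding protein of many leukocytes, had 2 and 206 UMIs (3.64, 1.83 to 6.76), but its log2 ratio without the deepest cells was -0.08. Tmsb10, an actin-binding thymosin, had 7 and 660 (3.56, 2.52 to 4.89), and was at 0.81 without them. Ly6c2, a surface antigen of classical monocytes, had 2 and 193 UMIs (3.55, 1.73 to 6.66), of which 84.5% lay in 5 KO cells and 116 UMIs in 1 cell, and was at 1.66 without the deepest and 1.18 without the class II-rich cells. Anxa5 had 1 and 72 (3.07), and was at 1.07 without the deepest cells and at 0.10 with no excluded genes in the rule. Taf10, a subunit of the general transcription machinery, had 1 and 75 (3.13) and was at 2.59 without the deepest cells. Cytosolic ribosomal protein genes moved with the same cells. Their median ratio was 1.02 with 39 of 76 called higher, beside 7.79% over all genes, but -0.01 with 2 of 71 called higher without the deepest cells, beside 89 of 1476, and the median cell gave 3.16% of its UMIs to them in WT and 3.15% in KO.

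Of the 10 genes with the lowest ratios, 6 belong to the interferon gamma response list, which was written after the values were seen. The other 4 were Cd69, an early activation antigen, with 36 and 29 UMIs (-3.27, -4.06 to -2.55), Nampt, an enzyme of NAD synthesis that is also secreted, with 78 and 156 (-1.98, -2.39 to -1.58), Clec2d with 65 and 132 (-1.96, -2.40 to -1.51) and Chil3. Chil3, a chitinase-like protein of young neutrophils, had 22 and 45 UMIs (-1.94, -2.72 to -1.15), and 5 WT cells held 95.5% of its WT UMIs. Without the deepest cells its ratio was -6.64, a size that depends on the added CPM. Cd69 was held to 80.6% by 5 of 9 WT cells, while Clec2d was spread over 22 WT and 75 KO cells. The 13 genes encoded by the mitochondrial genome summed to 36551 CPM in WT and 16104 CPM in KO, with 7 of 12 tested called lower, beside 5.56% over all genes. These genes make up the mitochondrial share of UMIs, which was higher in WT neutrophils, as given above. Whether RNA quality has a part in the other lower genes was not tested.

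The study followed a set of 11 genes in macrophages, and these were read in the neutrophils. It compared Zfp36, Il1b and Ccl5 in single macrophages of mice that lack Runx3 in myeloid cells, a knockout other than the one read here. Runx3, a transcription factor of lymphoid and myeloid differentiation (chromosome 4, 135120652 to 135177990, plus strand), had 0 UMIs in WT and 19 UMIs in 9 cells in KO, a level of 25.6 CPM that lies under the WT floor of 32.1 CPM, so no difference was detectable at this depth. Of the 8 members tested, Zfp36 alone was called, lower at -1.17, beside 5.56% called lower over all genes. Of these 8, 4 had counting intervals wholly below 0 and 1 above, beside 13.5% and 14.5% over all genes. The list median was -0.79 over the 9 members with at least 20 UMIs. Daxx had 7 WT and 13 KO UMIs (-2.03, -3.52 to -0.53), which was too few to be tested. Without the deepest cells 2 of 7 members were called lower, beside 88 of 1476 genes tested. Nr4a1, an orphan nuclear receptor, was at -0.87, Atf4, a stress response factor, at -0.79, Pak1, a kinase, at 1.39 with an interval that includes 0, and Flna, an actin crosslinker, at 0.05.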

How the data were processed

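The authors deposited raw UMI counts per gene and barcode for 1 WT and 1 KO library. Cell Ranger 3.0.2 is named per the file headers, and Seurat 4 and mm10 in the submitters' processing notes. The deposited libraries held 3185 WT and 3020 KO barcodes, where the study's legend gives 19895 WT and 3245 KO cells. Cells with 200 to 6000 genes and at most 15% mitochondrial UMIs were kept, then the rule for neutrophils was applied. No doublet caller was run. Counts were summed over the neutrophils of a library and given as CPM, with exact Poisson or binomial intervals at 95% that cover counting error only, and no test between genotypes was made. Cells were thinned to 1000 UMIs for shares of cells. The members and gene lists were chosen with earlier results of these data known, and 5 lists were added after values were seen (interferon gamma response, antioxidant and iron, stefins, ribosomal, mitochondrial). Some genes of these lists are not reported here. Genes named beside the lists were the 10 highest and 10 lowest log2 ratios among genes with at least 50 UMIs and 5 cells in the higher library, without mitochondrial and immunoglobulin genes, the 20 highest over other cells of both libraries (10 CPM added), and the most abundant. Eosinophil-like cells had at least 2 UMIs of Ccr3 and Siglecf, and monocyte-like cells at least 3 of Ly6c2, Ccr2 and F13a1 with S100 under 1%. Coordinates are from GENCODE M21 (GRCm38), in which 30934 of 31053 identifiers were found, and promoter windows from RefSeq (GRCm38.p6). The alternatives changed the filters, the S100 limit, the excluded genes, the deepest cells, the weighting, the depth and the thresholds. Python 3.11.15, numpy 2.4.6, scipy 1.17.1, pandas 2.3.3 and matplotlib 3.10.9 were used, and the calculations were tested on simulated data.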

Additional observations from a re-analysis of the deposited data

Results flagged for a closer look

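Ly6c2 differed between cell types in the KO to WT comparison. Its log2 ratio was 3.55 in neutrophils, from 2 WT and 193 KO UMIs, and -1.10 in monocyte-like cells, from 3224 WT and 3369 KO UMIs, a gap of 4.65. The difference was not tested, and the monocyte-like cells were themselves chosen with Ly6c2. In the KO neutrophils 88.1% of the Ly6c2 UMIs lay in the 20 deepest cells.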

How the results depend on the processing

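The share of neutrophils was higher in KO under each alternative, at 6.25 to 9.79% against 1.08 to 2.31% in WT. The WT share of 1.58% was 2.31% with no excluded genes and 1.08% with more excluded genes. The KO share of 8.15% was 6.95% with every barcode, 7.04% at an S100 limit of 2%, 9.79% with no excluded genes and 6.25% without class II-rich cells, an alternative chosen after seeing the data. The 150 genes called higher became 90 at an S100 limit of 2%, 98 with more excluded genes, 89 without the 10% deepest cells, 80 without class II-rich cells, 54 after thinning, 81 at 200 or more UMIs, 231 at 1.5-fold and 236 with no demand on the interval. The 107 genes called lower became 40 after thinning, 174 at 20 or more UMIs, 26 at 200 or more UMIs and 210 at 1.5-fold. With no excluded genes 118 were called higher and 141 lower, of which 42 were among the 150 and 49 among the 107. Of 4064 values of 254 named genes under 16 alternatives, 3763 stayed within the limits set for size and call and 295 moved. The sign was opposite in 284 values of 97 genes, of which 6 were values of called genes. These were H2-DMa with no excluded genes (-1.16), S100a4 without the deepest cells (-0.0815), Cxcl1 at an S100 limit of 0.5% (-0.0764) and Cd83 at 2% (-0.0671), without the deepest cells (-1.48) and with cells weighted equally (-0.53). Of list medians more than 0.1 from 0, those that changed sign with no excluded genes were the gelatinase granule (0.10), chemoattractant receptors (0.0868), growth factor receptors (0.0643), pattern recognition (0.24), cytokines (0.20), interferon-stimulated genes (0.19), transcription factors (0.0240) and ribosomal proteins (-0.18). Without the deepest cells they did for pattern recognition (0.17), cytokines (0.12) and ribosomal proteins (-0.00969), and the lipid mediator median, at -0.10, went to 0.0154 and, with no excluded genes, to 0.23. With cells weighted equally they did for gelatinase granule (0.0125), pattern recognition (0.0858) and cytokines (0.11), and after thinning for gelatinase granule (0.13), cytokines (0.18), heat shock (-0.0800) and glycolysis (-0.0409). Others were gelatinase granule with every barcode (0.00391), cytokines at an S100 limit of 2% (0.16), and pattern recognition with stricter filters (0.0520), more excluded genes (0.0183) and no class II-rich cells (0.13). The cause was not tested. The medians of the interferon gamma (-2.90 to -1.89), immediate early (-0.75 to -0.31), interleukin-1 (-0.72 to -0.38) and NF-kB (-0.52 to -0.20) lists stayed below 0 throughout. The median over all genes was 0.117 with every barcode, 0.139 at 20 or more UMIs and 0.148 at 200 or more. It fell below 0, to -0.0318, with no excluded genes. In that setting 8 list medians more than 0.1 from 0 changed sign, and so did the lipid mediator median. The 93513 WT UMIs limit most ratios. No paired analysis was possible because each genotype has 1 library.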
